A study of Homo sapiens with 2 samples.

Results

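The genes described here are 34 genes of cholesterol and fatty acid synthesis, chosen by name as a set of sterol synthesis enzymes, sterol regulators, sterol uptake and transport proteins, and fatty acid synthesis enzymes. Of the 34 symbols, 33 were matched to an Ensembl identifier among the 31845 genes of the table, and ACACA, the cytosolic acetyl-CoA carboxylase, was not matched, so no count or ratio of it is given. RNA sequencing had been done on 2 libraries, 1 of the parental Capan-1 line and 1 of a derivative of the same line made resistant to olaparib by exposure to concentrations raised in steps from 15 nM to 128 uM. Capan-1 is an established line from a pancreatic adenocarcinoma and carries a mutant form of BRCA2. Olaparib is an inhibitor of PARP enzymes, on which cells with impaired BRCA2 depend for survival. The labels describe no other agent or genotype, do not say whether the resistant line is 1 clone or whether olaparib was present at harvest, and give breast cancer as the cell type. The comparison asks how transcript levels differ between the resistant line and its parent. Columns bearing the parental name were read as parental and the remaining ones, whose heading the labels do not spell out, as resistant. All directions given here depend on that reading.

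Cholesterol is built from acetyl-CoA through mevalonate to isoprenoid units, which are joined into squalene, closed into a ring and trimmed to the sterol. Fatty acids are built from the same acetyl-CoA, which is supplied by citrate cleavage, and are then elongated and desaturated. Both routes are known targets of the SREBP transcription factors, which are made as membrane-bound precursors. SCAP carries the precursors to the Golgi for cleavage when sterols are low, and the INSIG proteins hold SCAP back in the endoplasmic reticulum when sterols are high. Many SREBP target promoters also need NF-Y, a factor that binds CCAAT boxes.

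The libraries held 34507480 counts (resistant) and 34572931 counts (parental), of which the 33 genes took 0.402% and 0.304%. BRCA2, named in the title of the series, had 7585 resistant and 1381 parental counts, a 5.53-fold higher level. Epithelial genes were abundant in both libraries, with EPCAM at 603 and 323 FPKM (fragments per kilobase of gene, scaled for library depth) and KRT19 at 932 and 704 FPKM, while the leukocyte gene PTPRC had 19 and 7 counts. With 1 library per group there was no replicate, so no test was run and each value describes these 2 libraries. Ratios are of counts scaled for library size, resistant over parental, and the 95% intervals beside them cover counting error only. The 2 libraries were compared over genes whose higher library held 50 counts or more. There were 15102 of these compared genes, among them 32 of the 33. How many of all compared genes have an interval that excludes equality was not computed, so counts of such intervals below have no background share.

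Sterol synthesis genes stood higher in the resistant library almost throughout. Of the 18 enzymes, 17 had a log2 ratio above 0, where 51.2% of all compared genes did. The median log2 ratio of the 18 was 0.61, or 1.53-fold, beside 0.06 over all compared genes and 0.09 over protein-coding ones. The differences were modest in size. At least 1.5-fold higher were 9 of the 18, against 16.8% of all compared genes, and 1 of the 18 was at least 2-fold higher, against 6.00%. None of the 18 was at least 1.5-fold lower, where 21.2% of compared genes were. Together the 18 genes took 0.227% of resistant and 0.145% of parental counts, a ratio of 1.57 (interval 1.55 to 1.59).

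**Figure D1:**
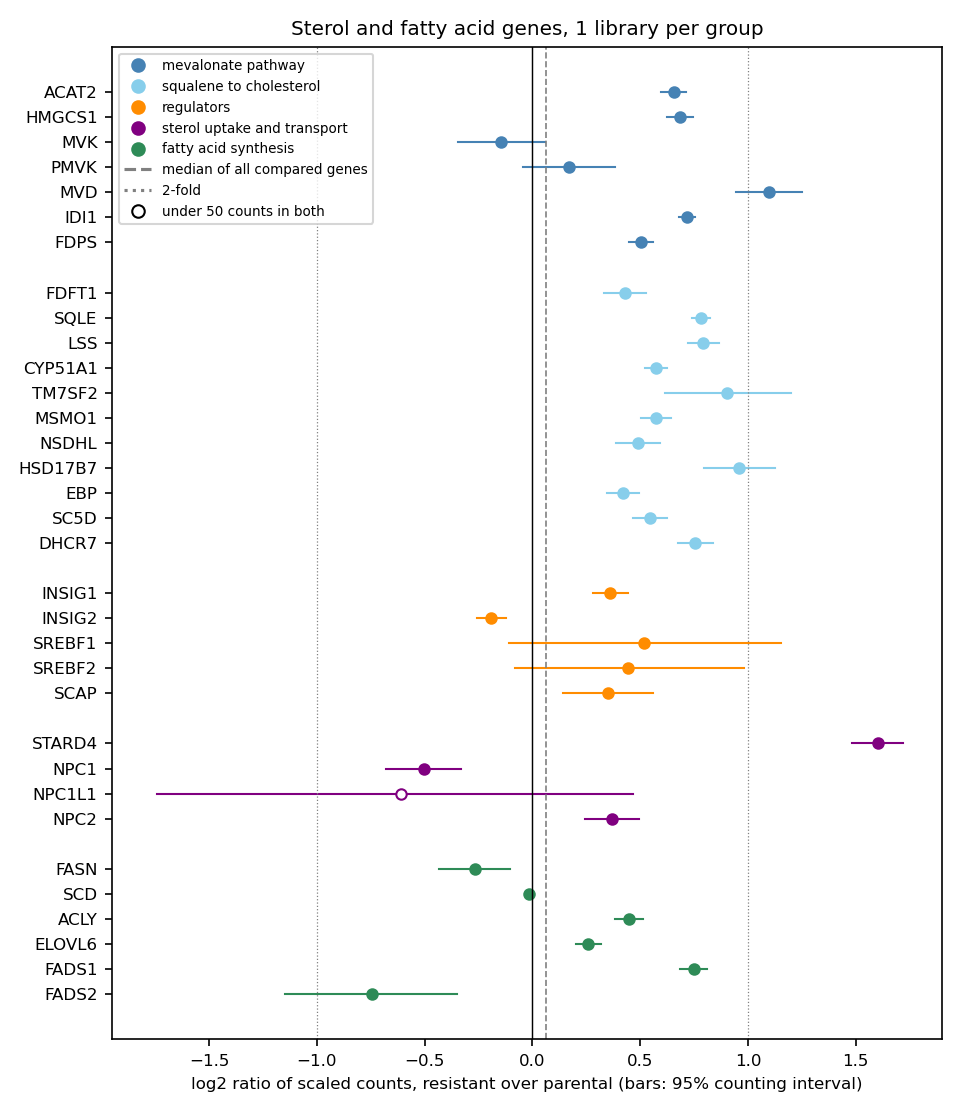
Log2 ratio of scaled counts, resistant over parental, for the 33 matched genes in order of their role, with 95% counting intervals as bars. The enzymes from squalene to cholesterol lie between 0.42 and 0.96, while the fatty acid genes lie on both sides of 0, from FADS2 at -0.74 to FADS1 at 0.75.

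For the first 7 enzymes, from acetyl-CoA to farnesyl diphosphate, the median log2 ratio was 0.65. ACAT2, the thiolase that joins acetyl-CoA units, had 6282 resistant and 4016 parental counts, a ratio of 1.57 (interval 1.51 to 1.64). HMGCS1, the HMG-CoA synthase, had 5574 and 3489 counts, a ratio of 1.61 (1.54 to 1.68). Both stood well above equality, and their intervals overlapped each other. The kinase MVK, further along, differed from them, with 384 resistant and 427 parental counts and a ratio of 0.905 (0.787 to 1.04). The second kinase, PMVK, had 391 and 350 counts, a ratio of 1.12 (0.971 to 1.30). The intervals of these 2 kinases include equal levels, and they are the only ones of the 18 that do. MVK shares 306 exonic bases with MMAB on the other strand, which had 2533 and 2985 counts (log2 ratio -0.23), and ACAT2 shares 397 with TCP1, which had 8260 and 5102 counts (0.70). Both partners had more counts than the enzyme and a ratio on the same side of equality, and their part in its value was not tested. MVD, the decarboxylase that follows them, had 1090 and 513 counts, a ratio of 2.14 (1.92 to 2.38), and was the 1 enzyme past 2-fold. IDI1, the isopentenyl diphosphate isomerase, had 14359 and 8792 counts (1.64-fold), and FDPS, which makes farnesyl diphosphate, had 6300 and 4467 counts (1.42-fold).

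All 11 measured enzymes from squalene to cholesterol were higher, from EBP at 1.34-fold to HSD17B7 at 1.94-fold, and their median log2 ratio was 0.57. Each had a counting interval above equality, but the share of all compared genes with such an interval was not computed. FDFT1, the squalene synthase at the branch point, had 1951 resistant and 1458 parental counts, a ratio of 1.35 (1.26 to 1.44). SQLE, the squalene epoxidase, had 12882 and 7537 counts, a ratio of 1.72 (1.67 to 1.77), and LSS, which closes the ring to lanosterol, had 4490 and 2608 counts, 1.73-fold. In these 2 libraries the ratio of the step into squalene was lower than the ratios of the 2 steps after it. The intervals do not overlap, but they cover counting error only, and variation between libraries was not measured.

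The lanosterol demethylase CYP51A1 had 7525 and 5086 counts (1.49-fold) and the methyl sterol oxidase MSMO1 3993 and 2700 counts (1.49-fold). NSDHL and HSD17B7 act with MSMO1 in removing the sterol's methyl groups. NSDHL had 1845 and 1323 counts, 1.40-fold (1.31 to 1.51), and HSD17B7 had 881 and 456, 1.94-fold (1.73 to 2.18). HSD17B7 has a near-identical copy, HSD17B7P2, listed with 810 and 565 counts, and reads may be split between them, so its value is uncertain. CYP51A1 likewise has copies, of which CYP51A1P2 had 566 and 420 counts. TM7SF2, a sterol reductase, had 279 and 150 counts (1.87-fold, 1.53 to 2.30). EBP, the sterol isomerase, had 3403 and 2559 counts (1.34-fold), SC5D, the desaturase, 3268 and 2253 (1.46-fold), and DHCR7, the last reductase on the route through lathosterol, 3356 and 2000 (1.69-fold). The 3 highest ratios of the 18, those of MVD, HSD17B7 and TM7SF2, belong to genes with under 15 FPKM in either library. Also under 15 FPKM in both libraries were LSS (ratio 1.73), NSDHL (1.40), PMVK (1.12) and MVK (0.905), so low level did not go with a high ratio throughout.

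Per unit length the enzymes differed more from each other than between the libraries. SQLE had the highest deposited FPKM, 213 in the resistant and 119 in the parental library, and ranked 247 and 421 among the 15102 compared genes. CYP51A1 (159 and 103 FPKM), IDI1 (158 and 92.9) and HMGCS1 (118 and 70.8) came next in the resistant library, followed by FDPS (109 and 74.3) and ACAT2 (86.2 and 52.9). At the other end, MVK had 1.10 and 1.17 FPKM and PMVK 3.59 and 3.08. These levels depend on the gene lengths behind the deposited FPKM. The length that count and FPKM imply was, in the median of the 32 compared genes, 0.507 times the GENCODE exonic length, against 1.05 times over all compared genes. It was 13.8 kb against 5.36 kb for SCD but 1.56 kb against 7.56 kb for SREBF2, so the order of levels between genes is approximate, while the ratio of a gene between libraries does not use the length.

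**Figure D2:**
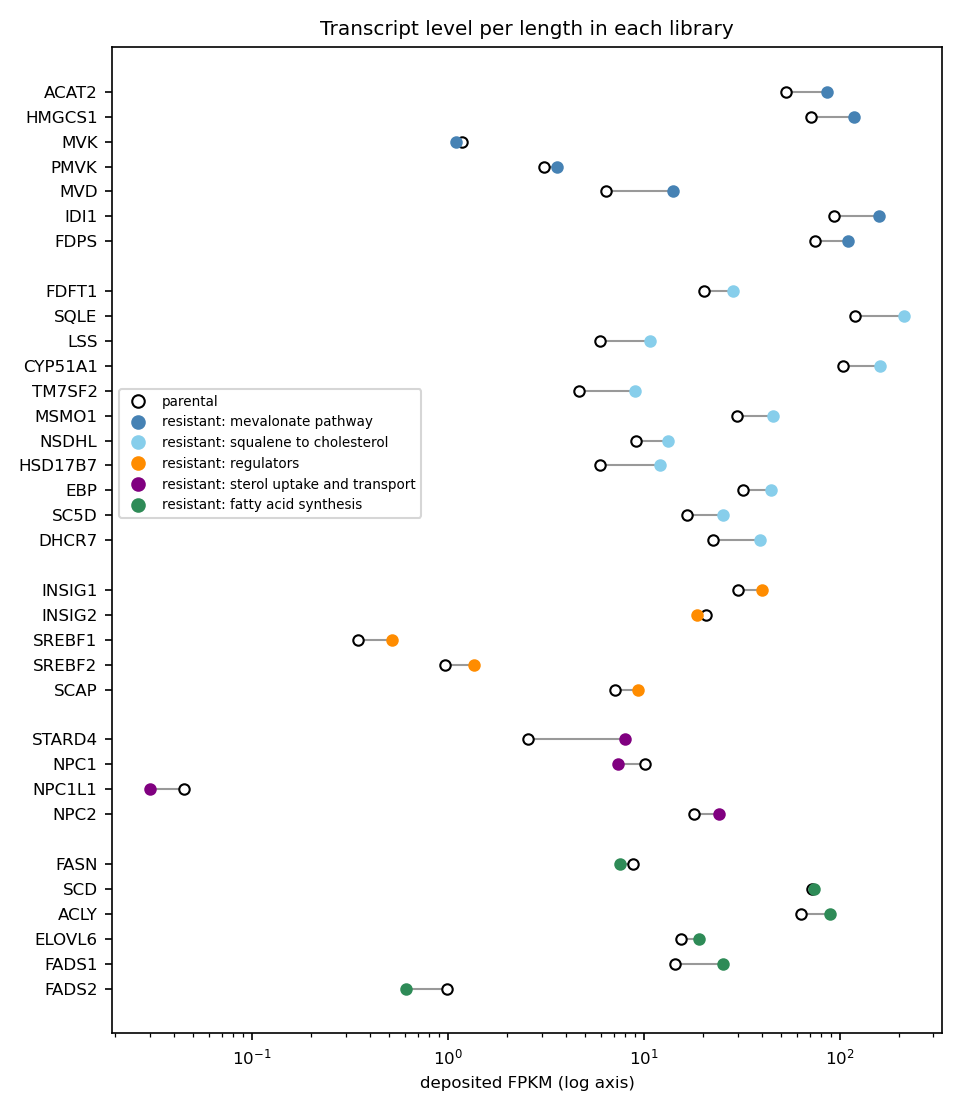
Deposited FPKM of the 33 matched genes on a log axis, with open circles for the parental and filled circles for the resistant library. Levels span from NPC1L1 at 0.03 FPKM to SQLE at 213 FPKM, and STARD4 has the widest gap between libraries.

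STARD4, a carrier that moves cholesterol between membranes, had the largest ratio of the set. It had 2390 resistant and 793 parental counts, a ratio of 3.03 (2.80 to 3.29), and 8.02 and 2.55 FPKM. Its log2 ratio of 1.60 exceeded that of 97.5% of compared genes. Its antisense partner STARD4-AS1 had 6 and 2 counts. The 2 proteins that let cholesterol leave the lysosome went in opposite directions. NPC2, the soluble one, had 1197 and 932 counts (1.29-fold, 1.19 to 1.41), while the membrane protein NPC1 had 458 and 654 counts, a ratio of 0.705 (0.624 to 0.796). NPC1 shares exonic bases with RMC1 on the other strand, which had 224 and 362 counts. NPC1L1, the intestinal sterol uptake protein, had 13 and 20 counts, which is too few to compare (ratio 0.654, interval 0.299 to 1.38). Of the 3 compared transport genes 1 was higher by 2-fold or more, where 6.00% of all compared genes were, and 0 were lower by that size, where 8.95% were.

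The median log2 ratio of the 5 regulators was 0.36, beside 0.61 for the sterol enzymes, and whether the 2 groups differ was not tested. None of the 5 was past 1.5-fold in either direction, where 16.8% of all compared genes were higher and 21.2% lower by that size. INSIG1, itself a known SREBP target, had 2915 resistant and 2284 parental counts, a ratio of 1.28 (1.22 to 1.36). Its paralog INSIG2 had 3343 and 3843 counts, a ratio of 0.876 (0.836 to 0.917), so the pair lay on opposite sides of equality. SCAP, the escort protein, had 434 and 343 counts, 1.27-fold (1.10 to 1.47). The genes of the transcription factors themselves were sparse in both libraries. SREBF1 had 54 and 38 counts (1.43, interval 0.927 to 2.23) and 0.516 and 0.348 FPKM. SREBF2 had 73 and 54 counts (1.36, interval 0.944 to 1.97) and 1.35 and 0.96 FPKM. Both intervals include equal levels, so a difference was not detectable at this depth. SREBF1 shares exonic bases with RAI1 on the other strand, which had 239 and 346 counts.

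Fatty acid synthesis genes lay on both sides of equality. Of the 6 compared, 3 had a log2 ratio above 0, where 51.2% of all compared genes did. Of the same 6, 3 had a counting interval above equality and 2 had an interval below it. No such share was computed over all compared genes. Whether the 6 genes differ as a group from the sterol enzymes was not tested. The median was 0.12, or 1.09-fold. SCD, the main desaturase, had 33765 resistant and 34337 parental counts, a ratio of 0.990 (0.975 to 1.00). FASN, the fatty acid synthase, had 548 and 664 counts, a ratio of 0.831 (0.741 to 0.932). ACLY, which cleaves citrate to acetyl-CoA and so feeds both routes, had 4454 and 3289 counts, 1.36-fold (1.30 to 1.43). ELOVL6, which elongates palmitate, had 5020 and 4221 counts, 1.20-fold (1.15 to 1.25). The neighbouring desaturase genes diverged. FADS1, with 5782 and 3466 counts, was 1.68-fold higher (1.61 to 1.75), and FADS2, with 86 and 145 counts, had a ratio of 0.597 (0.452 to 0.785). FADS1 and FADS2 share exonic bases on opposite strands. The libraries keep strand, but whether the counting used it is not given, and without it their reads in that stretch could not be told apart. Summed, the 6 genes had a ratio of 1.08 (1.07 to 1.10), which SCD dominates, and without SCD the other 5 had 1.36 (1.33 to 1.39), against 1.57 for the sterol enzymes.

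**Figure D3:**
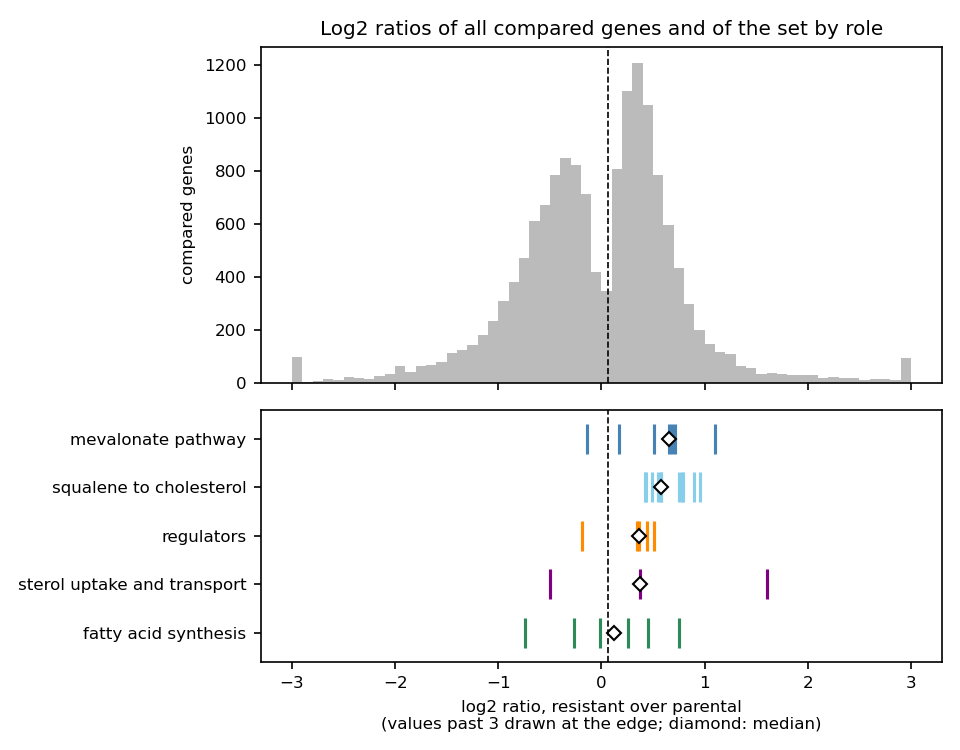
Above, log2 ratios of all 15102 compared genes, with their median dashed. Below them, each compared gene of the set as a line, with the median of its role group as a diamond. The sterol enzymes gather right of the median of all genes, while the fatty acid genes spread over both sides.

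The ratios of all compared genes formed a pair of peaks with a gap at equality, visible in the histogram of all compared genes. Only 764 genes had a log2 ratio from -0.1 to 0.1, against 2255 from 0.3 to 0.5 and 1632 from -0.5 to -0.3. Among the 5686 genes with at least 1000 counts the numbers were 368, 1047 and 559. The sources used here state no filter that would thin genes near equality, and the origin of the gap was not tested. The percentages of all compared genes past a fold size, given beside the counts above, hold for the genes of this table. Among compared genes above 0 the median log2 ratio was 0.44, and among the 17 sterol enzymes above 0 it was 0.65.

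Promoter sequences were compared because nearly all the sterol enzymes stood higher together. RefSeq windows of 300 bases, 250 before and 50 after a start (GRCh38.p14), were matched for 30 of the 34 genes, with none for ACAT2, FDFT1, SQLE and FASN. The 30 include ACACA, with 3 windows, although its transcript was not matched. The letters CCAAT, on either strand, occurred in the windows of 22 of the 30 genes (73.3%) and of 13 of the 15 sterol enzymes with a window (86.7%), against 42.1% of 15843 protein-coding genes. The sterol enzymes without it were CYP51A1 and PMVK, with ratios of 1.49 and 1.12. MVK, with a ratio of 0.905, held it at 210, 157, 94, 79 and 46 bases before the start. Whether these letters go with the ratio of a gene was not tested. The letters GGGCGG, a Sp1 motif, occurred in 28 of the 30 (93.3%) and in 64.3% of protein-coding genes. The sterol response element core searched, TCACNCCAC on either strand, occurred in 1 of the 30, SREBF2, and in 1.51% of protein-coding genes. Such a match is a description of letters and not of binding. A missing match does not show that a promoter lacks a sterol response element, because only this string within 300 bases was searched. Counted by window, CCAAT was in 63.4% of 41 windows of the set and 34.7% of protein-coding windows. All these protein-coding shares cover genes compared here or not, and none was computed over compared genes only.

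The 250 bases before the start are shown for the transport gene and the sterol enzyme past 2-fold, for the ring-closing and last-step enzymes LSS and DHCR7, and for SREBF2, whose window held the sterol response element core. Capitals mark CCAAT on either strand (ATTGG when read on the strand shown) and the sterol element core, and lines run 5′ to 3′ on the gene's strand in GRCh38.p14.
STARD4, chr5:111512536-111512785 (minus strand): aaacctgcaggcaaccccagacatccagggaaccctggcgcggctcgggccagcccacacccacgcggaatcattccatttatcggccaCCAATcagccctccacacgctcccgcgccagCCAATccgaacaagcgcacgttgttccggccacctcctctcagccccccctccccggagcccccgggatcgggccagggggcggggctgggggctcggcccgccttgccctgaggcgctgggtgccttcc
MVD, chr16:88663092-88663341 (minus strand): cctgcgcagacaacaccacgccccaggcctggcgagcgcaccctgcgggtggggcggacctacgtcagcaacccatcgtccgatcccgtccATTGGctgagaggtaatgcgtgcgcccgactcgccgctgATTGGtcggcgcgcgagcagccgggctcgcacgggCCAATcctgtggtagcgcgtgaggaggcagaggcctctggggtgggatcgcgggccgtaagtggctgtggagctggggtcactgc
LSS, chr21:46228775-46229024 (minus strand): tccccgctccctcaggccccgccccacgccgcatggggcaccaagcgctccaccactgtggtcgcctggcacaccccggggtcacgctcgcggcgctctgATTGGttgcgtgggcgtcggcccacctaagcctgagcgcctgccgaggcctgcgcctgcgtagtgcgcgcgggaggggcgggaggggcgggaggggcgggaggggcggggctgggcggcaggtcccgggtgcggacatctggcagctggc
DHCR7, chr11:71448394-71448643 (minus strand): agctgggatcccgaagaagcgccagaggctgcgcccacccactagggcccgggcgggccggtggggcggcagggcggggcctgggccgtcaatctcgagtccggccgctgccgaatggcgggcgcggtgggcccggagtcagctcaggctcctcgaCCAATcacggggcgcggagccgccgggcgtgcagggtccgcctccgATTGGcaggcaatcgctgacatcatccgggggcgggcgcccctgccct
SREBF2, chr22:41832855-41833104 (plus strand): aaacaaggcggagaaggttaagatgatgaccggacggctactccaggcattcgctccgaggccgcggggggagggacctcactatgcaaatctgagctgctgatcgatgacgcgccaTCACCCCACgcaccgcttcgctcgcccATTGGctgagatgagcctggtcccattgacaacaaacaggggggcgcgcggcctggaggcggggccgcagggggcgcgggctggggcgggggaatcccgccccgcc
In STARD4 the CCAAT boxes begin 161 and 130 bases before the start, and in MVD 159, 120 and 85 bases before it. DHCR7 has them at 94 and 48 bases in the window shown, and the other of its 2 RefSeq windows holds neither CCAAT nor GGGCGG. LSS has 1 at 150 bases followed by GGGCGG at 75, 66, 57, 48 and 38 bases. In SREBF2 the sterol element core begins 133 and the CCAAT box 106 bases before the start.

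Each gene was also set beside its neighbours, up to 10 compared coding genes on each side of it in GENCODE order, a comparison added after seeing the data. Each gene had 20 such neighbours except IDI1, with 15, and LSS, with 16. The medians of the neighbours ranged from -0.43 to 0.44 on the log2 scale over the 32 genes. All 18 sterol enzymes lay above their own neighbours, by 0.12 (NSDHL) to 0.96 (TM7SF2), with a median of 0.48 in place of 0.61. The share of all compared genes that lie above their own neighbours was not computed, so this count has no background to be read against. MVK, the 1 sterol enzyme below equality, had neighbours at -0.43 and lay 0.28 above them. The excess is the log2 ratio of the gene minus the median of its neighbours, so by construction it shrank most for genes with high neighbours. IDI1, at 0.72, had neighbours at 0.44, HMGCS1, at 0.69, had neighbours at 0.40, and the median of the 7 mevalonate enzymes went from 0.65 to 0.28. SC5D had 6 of its 20 neighbours at least 2-fold higher, although their median was 0.04. STARD4 lay 1.35 above its neighbours, and MVD 0.78.

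**Figure D4:**
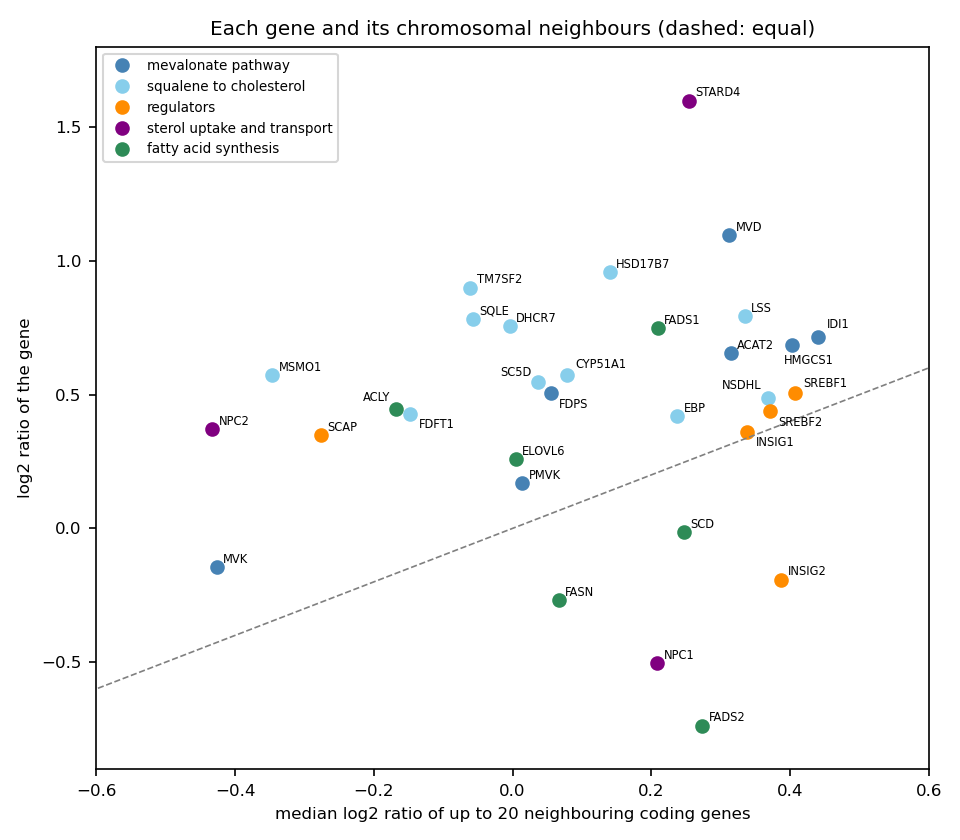
Log2 ratio of each compared gene against the median log2 ratio of its neighbouring coding genes (20, but 15 for IDI1 and 16 for LSS), with equality dashed. All 18 sterol enzymes lie above the line, while INSIG2, NPC1, SCD, FASN and FADS2 lie below it. The share of all compared genes above their own neighbours was not computed.

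Below their neighbours lay INSIG2 (by 0.58), NPC1 (by 0.71), SCD (by 0.26), FASN (by 0.33) and FADS2 (by 1.01). INSIG1, SREBF1 and SREBF2 lay within 0.10 of theirs. Genes that are close together, such as FADS1 and FADS2, share neighbours. Whether copy number moves with these neighbourhood values was not tested.

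Other genes of the pathway, from lists of further members, were counted in the same way. Of 11 further SREBP processing genes, 0 were past 2-fold in either direction, where 6.00% of all compared genes were higher and 8.95% lower by that size, and the median log2 ratio was -0.12. ERLIN2, part of the complex that degrades sterol-regulated proteins, had 951 and 554 counts (0.79), and TRIM21, a ubiquitin ligase, had 194 and 343 counts (-0.81). The proteases that cleave the precursors, named here after their values were seen, had log2 ratios of -0.54 (MBTPS1) and -0.12 (MBTPS2).

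Genes of the liver X receptor and sterol efflux list were mostly lower in the resistant library. Of the 9 compared, 1 had a log2 ratio above 0, where 51.2% of all compared genes did, and their median was -0.61. The counting intervals of the other 8 lay below equality, a share that was not computed over all compared genes. CYP27A1, which makes 27-hydroxycholesterol from cholesterol, was the 1 at least 2-fold lower, where 8.95% of all compared genes were, with 31 and 109 counts and a ratio of 0.286 (0.186 to 0.430). Named after their values were seen, the receptor genes NR1H2 and NR1H3 had ratios of 0.538 and 0.571, and the cholesterol exporter ABCA1, a known target of these receptors, had 548 and 1032 counts, a ratio of 0.535 (0.481 to 0.593). The exporter ABCG1, another known target, had 137 and 72 counts and a ratio of 1.92 (1.43 to 2.58), the 1 gene of the list above equality. With the trend of log2 ratios with gene length removed, ABCA1 went from -0.90 to -0.36. NR1H2, NR1H3 and CYP27A1 were then at -0.97, -0.87 and -1.68, and ABCG1 at 0.86.

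Of 17 compared further genes of sterol transport and storage, 2 were past 2-fold in the higher and 4 in the lower direction, with a median log2 ratio of 0.07. Of all compared genes, 6.00% were higher and 8.95% lower by that size. The lipoprotein receptor SCARB1 had 1218 and 394 counts, 3.11-fold higher (2.78 to 3.50). The other of the 2, LIPA, the lysosomal acid lipase, had 10698 and 5233 counts (2.06-fold) and was named after its value was seen. Among the 4 lower genes, the sterol transfer genes GRAMD1A and GRAMD1C were 2.47-fold and 2.07-fold lower, and PTCH1, the Hedgehog receptor with a sterol-sensing domain, was 2.79-fold lower with 58 and 163 counts.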

How the data were processed

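Transcripts were measured by RNA sequencing of strand-specific ScriptSeq libraries made from total RNA, per the labels' protocols. The deposited counts are whole numbers per Ensembl gene with no normalization, per the file headers, and the authors' FPKM values rest on gene lengths that are not given. Per the submitters' processing notes, RSEM 1.2.3 and hg19 were used, in roles the notes leave out. Not given in the sources used here are the annotation, the strand setting and whether counts are rounded estimates. Values are therefore uncertain for genes with near-identical copies and for the 16 of the 33 that share exonic bases with another gene.

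Symbols came from a gene name table and GENCODE release 29, which named 29719 of 31845 identifiers. GENCODE describes another build and served for names, gene order, overlap and exonic length. Counts were scaled with TMM factors (edgeR 4.0.16, R 4.3.3), and log2 ratios used a prior of 1 count, while ratios in fold used none. Genes were called at a 2-fold difference, given 50 or more counts in 1 library. Intervals are exact conditional (Clopper-Pearson) 95% intervals. With 1 library per group no p-value exists. The scaling and the recovery of log2 ratios were tested on simulated counts that held counting error only. The intervals, length trend removal, neighbour values and motif counts were not tested in this way. All genes of the set were described. From each further list, up to 4 genes past 2-fold were named, largest first, or the 2 largest where none passed. The genes and lists were chosen with earlier results of these data known. Alternatives covered scaling (DESeq2 1.42.0 median of ratios, over compared genes), deposited FPKM, removal of the trend with gene length (statsmodels 0.14.6), prior counts, count minimums, fold sizes and means. Python 3.11.15 was used.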

Additional observations from a re-analysis of the deposited data

How the results depend on the processing

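No paired analysis was possible because each group has 1 library. Of 256 values of the 32 genes under 8 alternatives, 197 stayed within the counting interval and 54 moved beyond it without changing sign. The other 5 changed sign. SCD, at -0.01, became 0.057 with upper quartile scaling, 0.036 with deposited FPKM and 0.29 with the length trend removed. MVK, at -0.14, became 0.081 with that trend removed and 0.28 relative to its neighbours. Of 4 classes of compared genes by length, equal in size, the longest had a median log2 ratio of -0.29 and the shortest 0.21. The scaling alternatives moved the median of all compared genes by -0.06 to 0.07.

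The median of the 18 sterol enzymes, 0.61, was 0.55 with median of ratios scaling, 0.69 with upper quartile scaling, 0.54 with the length trend removed and 0.48 relative to neighbours, the alternative added after seeing the data. In the same order the mevalonate enzymes gave 0.59, 0.73, 0.58 and 0.28, and a mean of 0.53. The enzymes from squalene to cholesterol gave 0.51, 0.65 and 0.50 under the first 3, and a mean of 0.66. The fatty acid median of 0.12 was 0.06, 0.19, 0.33 and -0.0032 under these 4, 0.17 with deposited FPKM, 0.26 with a minimum of 200 counts and 0.073 as a mean, so its sign is not settled. The transport median of 0.37 was 0.80 relative to neighbours and -0.067 with a minimum of 10 counts or none, which adds NPC1L1.

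Sterol enzymes at least 2-fold higher numbered 2 in place of 1 with upper quartile scaling, deposited FPKM or the length trend removed. They numbered 9 at 1.5-fold and 0 at 4-fold. Of all 32 compared genes, 11 were at least 1.5-fold higher, 1 at least 1.5-fold lower and 0 at least 4-fold higher. Over all genes, the 906 higher and 1352 lower became by construction 1975 and 2821 (minimum 10), 474 and 741 (minimum 200), 5565 and 5887 (no filter), 2541 and 3209 at 1.5-fold, and 252 and 250 at 4-fold. The cause of the other shifts was not tested. Counts limit the comparison of SREBF1, SREBF2 and NPC1L1.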

Other observations

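Enzymes that use the products of the mevalonate pathway were mostly higher in the resistant library. Of 12 genes of the isoprenoid branches, 11 had a log2 ratio above 0, where 51.2% of all compared genes did, and the median was 0.44. At least 2-fold, 1 was higher and 1 lower, beside 6.00% and 8.95% of all compared genes. PDSS1, which makes the side chain of coenzyme Q, had 2506 resistant and 1244 parental counts, 2.03-fold higher (interval 1.89 to 2.17). FNTB, the beta subunit of protein farnesyltransferase, had 115 and 275 counts, 2.38-fold lower, while the alpha subunit gene FNTA, named after its value was seen, had 2511 and 1811 counts, 1.40-fold higher.

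Of 30 compared further genes of fatty acid synthesis and use, 2 were past 2-fold in the higher and 4 in the lower direction, beside 6.00% and 8.95% of all compared genes, and the median log2 ratio was 0.22. ME1, the cytosolic malic enzyme that supplies NADPH, had 3834 and 1357 counts, 2.84-fold higher (2.67 to 3.03). ACSL5, an acyl-CoA synthetase, had 7938 and 21349 counts, 2.67-fold lower. ACACB, the mitochondrial acetyl-CoA carboxylase, had 196 and 533 counts, 2.70-fold lower, and SCD5, a second desaturase, had 370 and 879 counts, 2.36-fold lower. With the length trend removed, the log2 ratio of ACACB was -0.94 in place of -1.43, which is short of 2-fold. Those of ACSL5 (-1.26), SCD5 (-1.09) and ME1 (1.66) stayed past 2-fold.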
